A study of Sus scrofa with 48 samples.

Results

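The calpain system and the cathepsins are the main proteases of muscle besides the proteasome, and 10 of their genes were followed here in the longissimus muscle of growing pigs: the calpains CAPN1, CAPN2 and CAPN3, the small calpain subunit CAPNS1, the calpain inhibitor calpastatin (CAST), and the cathepsins CTSB, CTSD, CTSH, CTSL and CTSS. A probe was taken for a gene when its gene name was the symbol, or when its description held the symbol in brackets, and when it was well above background on at least 12 of 48 arrays. This gave 33 probes, all of which passed the limit on background. One of them was set apart, as explained below, so that 32 probes of 9 genes are described, among 29879 gene names with a tested probe. CTSL had no probe under that symbol. Of the 32 probes, 31 were well above background on all 48 arrays.

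Muscle was sampled from 48 castrated males of 2 Large White lines, which had been selected in opposite directions on residual feed intake (RFI), the part of feed intake not accounted for by maintenance and growth. Pigs of each line had the HF diet, rich in fat and fiber, or the LF diet, low in both, which made 4 groups of 12 named here by line and diet (low RFI/HF, high RFI/HF, low RFI/LF and high RFI/LF). All pigs ate ad libitum. No unselected pigs were among the samples, so that a line difference has no side of its own, and each line is 1 population, so that selection and drift cannot be told apart. Each pig had its own one-colour array of the 60 K microarray, and the 6 slides of 8 arrays carried 2 pigs of each group. The median signal of an array ranged from 52.8 to 107.9, no spot was saturated, and arrays of a group correlated at 0.966 to 0.990. The 16 muscle fibre genes checked, such as MYH2 and TTN, were well above background on all arrays.

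Calpains are cysteine proteases of the cytosol that are switched on by calcium. CAPN1 and CAPN2 are the large subunits of the ubiquitous calpains, each works with CAPNS1, and calpastatin blocks both. CAPN3 is the calpain of skeletal muscle and sits on titin in the sarcomere. Calpains cut proteins that anchor the myofibril, and their balance with calpastatin is known for its part in the softening of meat after slaughter. Cathepsins work in the acid lysosome: CTSB, CTSH, CTSL and CTSS are cysteine proteases, and CTSD is an aspartic protease. CTSS is best known from macrophages and other cells that present antigen.

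The genes were read through 60-base probes, and the part of the probe set that decides how far they can be trusted is shown first. Each of the 9 genes was read at its reference probe. This was the probe with the most arrays above background and, among equals, the highest mean signal. For the 7 genes with a line difference, the first 30 bases of the reference probe, in lower case, identify what was measured:
CAPN2 A_72_P165706: cttgttgccttattttcttccacatgtact
CAPN3 A_72_P684439: attcatcctccgggtcttctccgaaaagag
CAST O13627: cgccttcctctgcttcaacgagcaagtctt
CTSB A_72_P077676: ttaaaaccactgcttcaccctgtcagtgta
CTSD A_72_P178086: ttctgttccgtggtgtccctccctggttcc
CTSH A_72_P125121: atattggattgtgaaaaactcatggggtcc
CTSS O9267: gtgggattgctaattatccctcttacccag

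In 2 genes, probes lay on opposite strands. The capitals mark bases that are identical to the reverse complement of the partner probe, 30 bases of a longer match of 34 bases for CAPNS1 and 58 bases for CTSD:
CAPNS1 A_72_P022746: TTCAAATCTCTTGACAAAGATGGTACTGGA
CAPNS1 O14384: TCCAGTACCATCTTTGTCAAGAGATTTGAA
CTSD A_72_P178086: TTCTGTTCCGTGGTGTCCCTCCCTGGTTCC
CTSD O11991: GGAACCAGGGAGGGACACCACGGAACAGAA

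Both probes of such a pair cannot detect the same strand. Within groups, O14384 correlated with its partner at 0.05 and O11991 at 0.15 over the pigs, against 0.91 for the remaining CAPNS1 probe and 0.90 for the remaining CTSD probe. O14384 and O11991 were kept among the 32 probes, but no statement on a gene was drawn from them. Other probes were less than independent for the reverse reason. A_72_P095036 and A_72_P562909 of CTSB had all 60 bases in common, A_72_P125151 and A_72_P680499 of CAPN2 shared 57, and A_72_P077676 and A_72_P621418 of CTSB shared 40. A_72_P035971 and A_72_P125121 of CTSH shared 31, and A_72_P088326 and O5347 of CAPN3 shared 30.

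The probe set apart, A_72_P228592, carried "CAST" in its description only as another name of a subunit of RNA polymerase I, and it shared 52 bases with a probe named CCND3. It correlated with the CAST reference probe at 0.23. The rule as written would have made it the reference probe of CAST because it was the brightest.

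High RFI pigs had less transcript of CAPN2, CAPN3 and calpastatin, and more of CTSB, CTSD, CTSH and CTSS, than low RFI pigs, whereas no line difference was found for CAPN1 and CAPNS1. In limma's moderated test with Benjamini-Hochberg adjustment over all 42125 probes, 7 of 9 reference probes passed an adjusted p of 0.05, 4 of them higher and 3 lower in high RFI pigs. Of all probes tested, 16.4% passed, 6.57% higher and 9.85% lower. Over the 32 probes, 24 passed, 14 higher and 10 lower, and without the 2 opposite-strand probes it was 23 of 30, with 13 higher. Line differences are log2 values, with the low RFI mean subtracted from the high RFI mean and the diets weighted equally, and their median over all probes was -0.03.

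**Figure D1:**
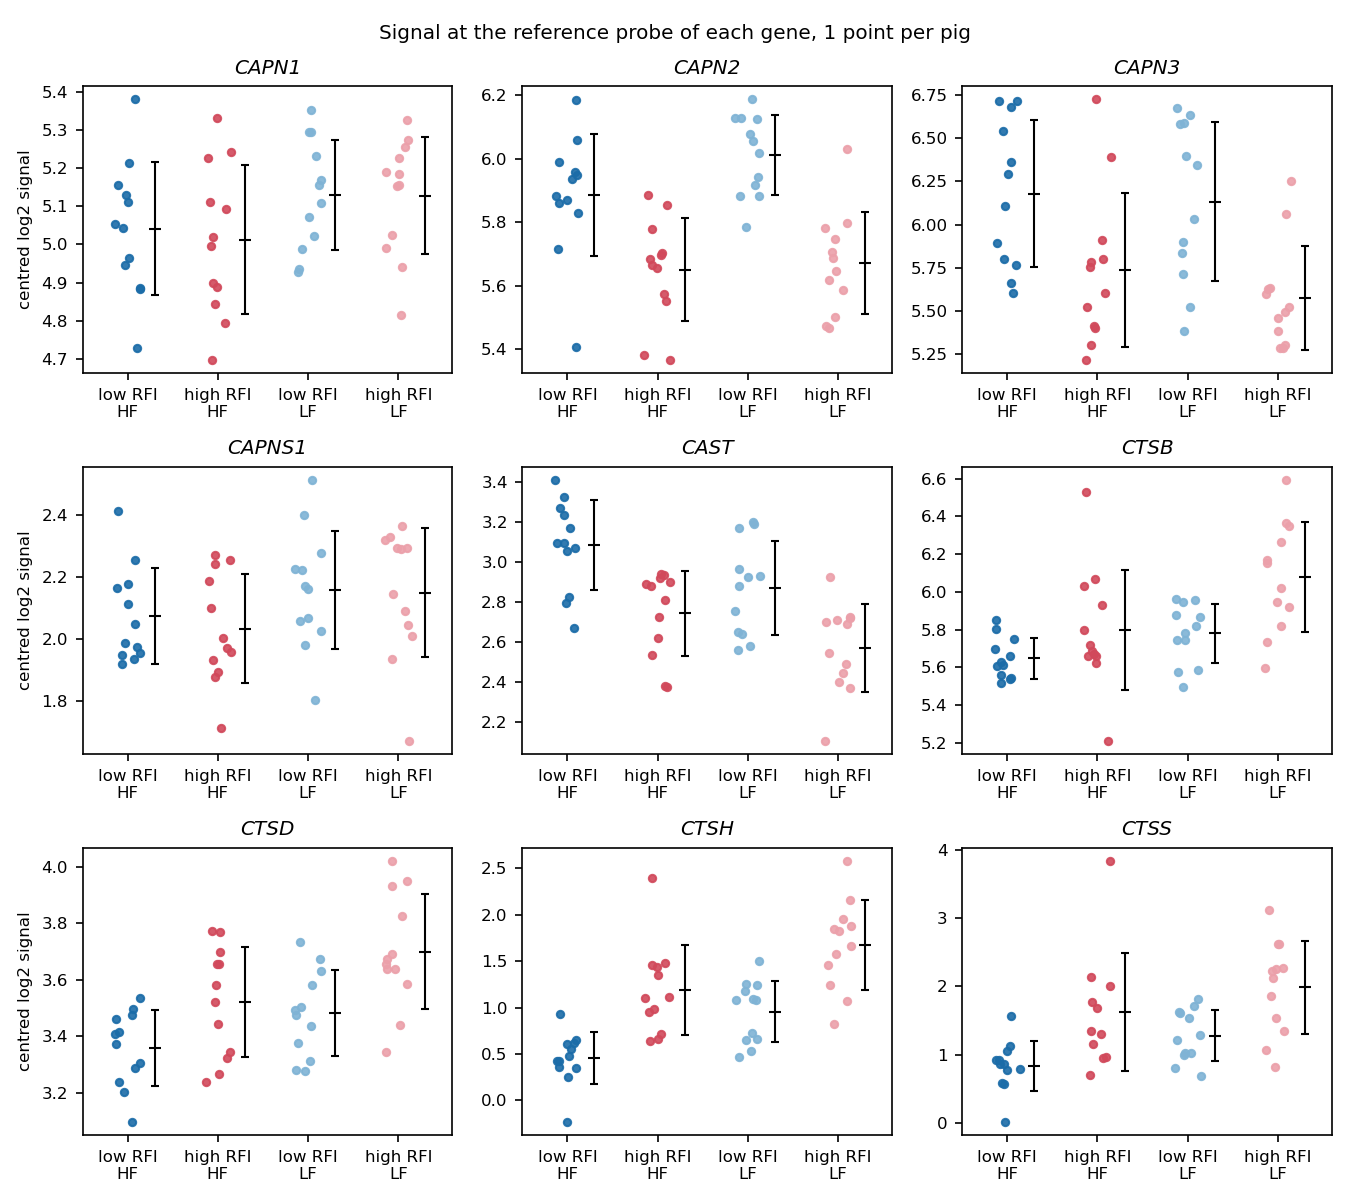
Centred log2 signal at the reference probe of each of the 9 genes (y axis, scaled per gene) in the 4 line and diet groups (x axis), 1 point per pig, with the mean and SD beside the points. CAPN2, CAPN3 and CAST sit lower and CTSB, CTSD, CTSH and CTSS sit higher in high RFI pigs, while the groups overlap in each gene.

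CAPN2, the large subunit of m-calpain, gave the smallest adjusted p of the calpain system. Centred log2 signal ran from 5.41 to 6.19 with a median of 5.95 in low RFI pigs (n = 24), and from 5.37 to 6.03 with a median of 5.68 in high RFI pigs (n = 24). All but 1 of the 24 high RFI pigs lay below the low RFI median, and 8 low RFI pigs lay above every high RFI pig. The group means were 5.89 ± 0.19 in low RFI/HF, 6.01 ± 0.13 in low RFI/LF, 5.65 ± 0.16 in high RFI/HF and 5.67 ± 0.16 in high RFI/LF pigs (SD, n = 12 each). The line difference was -0.29 ± 0.0481 (SE), a ratio of 0.819, with an adjusted p of 4.88e-05 (limma). The other CAPN2 probes, which overlap each other, both gave -0.27, with adjusted p of 0.000711 and 0.000461.

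CAPN1, the large subunit of μ-calpain, showed no such shift. Its signal ran from 4.73 to 5.38 with a median of 5.09 in low RFI pigs and from 4.70 to 5.33 with a median of 5.10 in high RFI pigs. The lines covered the same range, and 13 of 24 high RFI pigs lay above the low RFI median. The line difference was -0.02, with a 95% interval from -0.12 to 0.08 and an adjusted p of 0.866, and its second probe gave 0.04 (adjusted p of 0.608). CAPNS1, the subunit that CAPN1 and CAPN2 share, ran from 1.80 to 2.51 in low RFI pigs and from 1.67 to 2.36 in high RFI pigs, with a median of 2.09 in both. Its line difference was -0.03, with a 95% interval from -0.13 to 0.08 and an adjusted p of 0.789, and the opposite-strand probe O14384 gave 0.06 (adjusted p of 0.502). A difference of the size found for CAPN2 lies outside the intervals of both reference probes.

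CAPN3, the muscle calpain, had the largest line difference of the calpain system and the widest spread. The reference probe ran from 5.39 to 6.72 with a median of 6.20 in low RFI pigs, and from 5.22 to 6.73 with a median of 5.56 in high RFI pigs. Of the 24 high RFI pigs, 21 lay below the low RFI median, but the highest pig of all was a high RFI/HF pig. The SD within a group was 0.30 to 0.46, compared with 0.13 to 0.20 for CAPN1 and CAPN2. The line difference was -0.50 ± 0.117, a ratio of 0.707 (adjusted p of 0.00258). The other CAPN3 probes gave smaller values, -0.23 (adjusted p of 0.0265) and -0.20 (adjusted p of 0.0511), and within groups they correlated with the reference probe at only 0.13 and 0.09. The size of the CAPN3 difference therefore depends on the probe. Its sign was the same at all 3, of which A_72_P088326 and O5347 overlap.

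Calpastatin, the inhibitor, was lower as well. The CAST reference probe ran from 2.56 to 3.41 with a median of 3.01 in low RFI pigs, and from 2.105 to 2.94 with a median of 2.71 in high RFI pigs. Every high RFI pig lay below the low RFI median, and 13 of 24 low RFI pigs exceeded all high RFI pigs. The line difference was -0.32 ± 0.0648, a ratio of 0.800 (adjusted p of 0.000548). All 6 CAST probes were lower in high RFI pigs, from -0.32 to -0.12, and 4 passed the test. The exceptions were A_72_P146531 at -0.12 and A_72_P255767 at -0.14, with adjusted p of 0.181 and 0.113, and A_72_P255767 correlated with the reference probe at 0.45.

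With both CAPN2 and CAST lower in high RFI pigs, the log2 signal of CAPN2 minus that of CAST differed little between the lines, by 0.03 on the log2 scale. That of CAPN1 minus CAST was 0.31 higher in high RFI pigs, with means of 2.41 ± 0.33 and 2.11 ± 0.29 (SD, n = 24 each). These differences are a description, with no test. The level itself carries no meaning here, because 2 probes differ in brightness for reasons other than the amount of transcript.

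**Figure D2:**
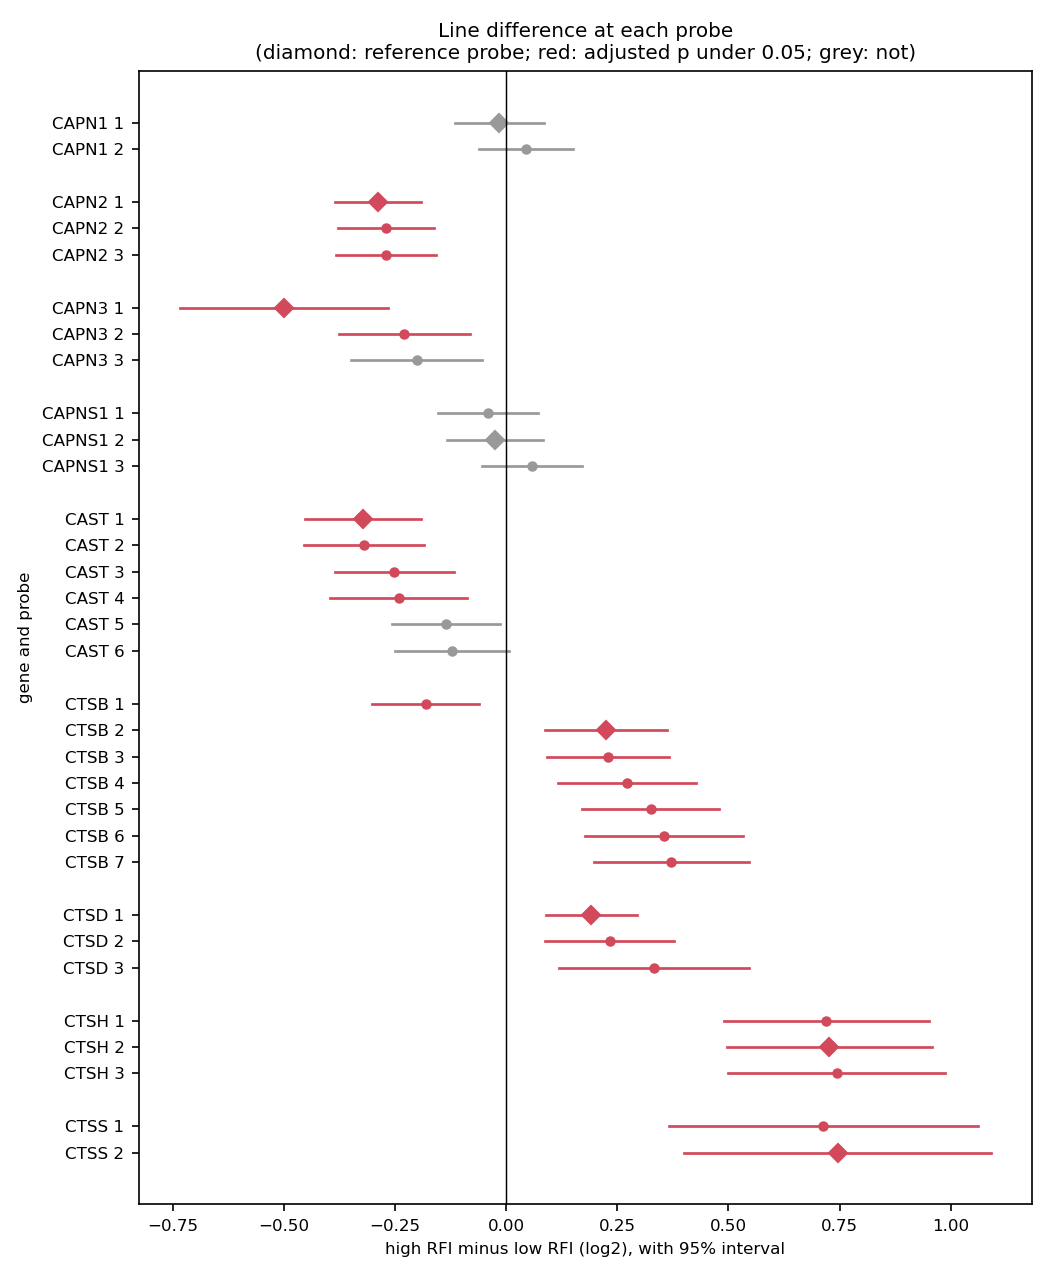
Line difference (x axis, high RFI minus low RFI, log2) with its 95% interval at each of the 32 probes (y axis, grouped by gene and ordered by size), diamonds for reference probes, red for an adjusted p under 0.05. The calpain and calpastatin probes that passed lie below 0, and 14 of 15 cathepsin probes, opposite-strand O11991 among them, lie above 0.

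Of CTSB, CTSD, CTSH and CTSS, the last pair differed most. CTSH is an aminopeptidase of the lysosome. Its reference probe ran from -0.23 to 1.50 with a median of 0.64 in low RFI pigs, and from 0.64 to 2.58 with a median of 1.44 in high RFI pigs. Every high RFI pig lay above the low RFI median, and 9 of 24 exceeded all low RFI pigs. The group means stood in the order low RFI/HF (0.45 ± 0.28), low RFI/LF (0.96 ± 0.33), high RFI/HF (1.19 ± 0.49) and high RFI/LF (1.67 ± 0.48, SD, n = 12 each), with the middle pair closer than its SDs. The line difference was 0.73 ± 0.115, a ratio of 1.66, with an adjusted p of 2.12e-05. The 3 CTSH probes gave 0.72 to 0.74 and correlated at 0.98 to 0.99 with the reference probe.

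CTSS ran from 0.01 to 1.82 with a median of 1.01 in low RFI pigs (n = 24), and from 0.70 to 3.83 with a median of 1.77 in high RFI pigs (n = 23). The lowest high RFI pigs overlapped with the low RFI pigs, 11 high RFI pigs exceeded all low RFI pigs, and the SD of 0.78 in high RFI pigs compared with 0.43 in low RFI pigs. The lines differed by 0.75 ± 0.172, a ratio of 1.68 (adjusted p of 0.00228), and the second probe gave 0.71 (adjusted p of 0.00363). The missing value was a spot of high RFI/HF pig 12 that the scanner software had marked as an outlier. This spot read 8.21, while the other 11 pigs of its group reached at most 3.83, and at the second CTSS probe the same pig read -0.29, below all others of its group. A further 10 probes, outside the rule because the array names them LOC100153090, belong to CTSS by the gene ID in the RefSeq table of the Sscrofa11.1 assembly. All 10 passed, at 0.63 to 0.77, and correlated with the reference probe at 0.94 to 0.99. Among them A_72_P725263 shared 57 bases with the reference probe, and A_72_P743446 shared 36 with the second CTSS probe.

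CTSB and CTSD, the most general of the lysosomal cathepsins, differed less. CTSB ran from 5.49 to 5.96 with a median of 5.72 in low RFI pigs, and from 5.21 to 6.59 with a median of 5.92 in high RFI pigs, where the SD was 0.33 against 0.15. The high RFI pigs spread to both sides of the low RFI pigs, with 10 above and the lowest below all of them. Between the lines it differed by 0.22 ± 0.0682, a ratio of 1.17 (adjusted p of 0.0189). Of 7 CTSB probes, 6 were higher in high RFI pigs, from 0.22 to 0.37, and all of them passed. The seventh, O12329, went the other way at -0.18 (adjusted p of 0.0315), had a correlation of -0.28 with the reference probe and shared no 20 bases with any other CTSB probe on either strand.

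CTSD ran from 3.10 to 3.73 with a median of 3.43 in low RFI pigs, and from 3.24 to 4.02 with a median of 3.65 in high RFI pigs. Of the 24 high RFI pigs, 19 lay above the low RFI median, and 6 exceeded all low RFI pigs. High RFI pigs exceeded low RFI pigs by 0.19 ± 0.0512, a ratio of 1.14 (adjusted p of 0.00779). A_72_P772656 gave 0.23 (adjusted p of 0.0215), and the opposite-strand probe O11991 gave 0.33 (adjusted p of 0.0259).

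CTSL was read only under older symbols. The 10 probes named CTSL1 gave line differences from 0.14 to 0.22 and none passed the test, the smallest adjusted p being 0.0843. The transcript that they were designed on now belongs to CTSV in the RefSeq table, where CTSL is a different gene. The probe named CTSL2 gave 0.00 (adjusted p of 0.980). No value of CTSL is therefore given.

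Within each diet the differences kept their signs, with fewer calls. On the HF diet 4 of 9 reference probes passed, compared with 6.39% of all probes. CAPN2 (-0.24, adjusted p of 0.0297) and CAST (-0.34, adjusted p of 0.0211) were lower in high RFI pigs. CTSH (0.74, adjusted p of 0.00615) and CTSS (0.79, adjusted p of 0.0445) were higher. The other CAPN2 probes did not pass there, at -0.16 (adjusted p of 0.194) and -0.17 (adjusted p of 0.160). The second CTSS probe, read in all 12 high RFI/HF pigs, did not pass either (0.73, adjusted p of 0.0597), and of 6 CAST probes 2 passed. The CTSS reference probe was read in 11 of these pigs, without pig 12, which was the lowest of its group at the second probe. Without high RFI/HF pig 10, the array that correlated least with its group, 3 passed on the HF diet, and CAPN2 was at -0.21 with an adjusted p of 0.0509. On the LF diet 2 of 9 passed, compared with 2.47% of all probes: CAPN2 (-0.34, adjusted p of 0.00254) and CTSH (0.72, adjusted p of 0.00902). CAPN3 passed on neither diet, at -0.44 (adjusted p of 0.0884) on the HF diet and -0.56 (adjusted p of 0.0563) on the LF diet. At the reference probes CTSB was at 0.15 and 0.30, and CTSD at 0.16 and 0.22, on the HF and LF diets, with adjusted p from 0.0839 to 0.336. Of 7 CTSB probes 2 passed on the HF diet, with opposite signs. They were A_72_P562909 at 0.39 (adjusted p of 0.0468) and O12329 at -0.33 (adjusted p of 0.0179).

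The test of the difference between diets, the line by diet interaction, found no gene. None of 9 reference probes passed in limma, and 0% of all probes did. None of the 9 had an unadjusted p under 0.05, compared with 4.45% of all probes. Among the 32 probes 1 had an unadjusted p under 0.05, CTSB O12329, at -0.29. For CTSH the interaction was 0.02, with a 95% interval from -0.44 to 0.48, and for CAPN2 0.10, from -0.09 to 0.30. For CTSS the interval was the widest of the 9 genes, from -0.61 to 0.77.

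**Figure D3:**
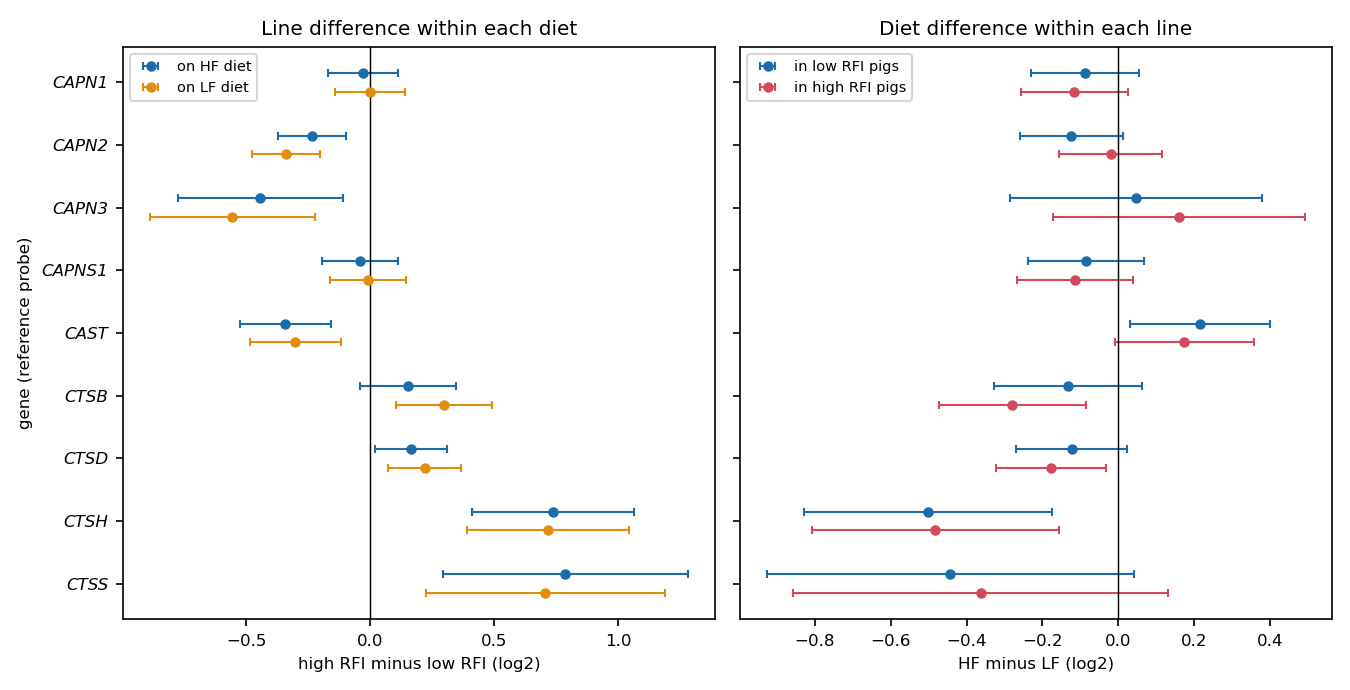
Left, high RFI minus low RFI (x axis, log2) on the HF and the LF diet, and right, HF minus LF (x axis, log2) in each line, at the reference probe of each gene (y axis), with 95% intervals. The paired intervals of each gene overlap in both panels.

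CTSH also differed between the diets. It was lower on the HF than on the LF diet, at -0.49 ± 0.115 (adjusted p of 0.0349). No other reference probe passed, so that 1 of 9 was called, compared with 0.42% of all probes, made up of 0.176% higher and 0.245% lower under HF feeding. CTSH ran from -0.23 to 2.40 with a median of 0.66 on the HF diet, and from 0.47 to 2.58 with a median of 1.24 on the LF diet (n = 24 each). Of the 24 pigs on the HF diet, 19 lay below the LF median. Of the 32 probes 2 passed, both of CTSH, and the third CTSH probe gave -0.48 (adjusted p of 0.0535). The call was lost with normexp background correction (-0.44, adjusted p of 0.0529) and without a filter on dim probes (-0.49, adjusted p of 0.102). Over all probes the balance of diet calls moved with the scaling, from 103 lower of 177 to 66 lower of 243 with the 75th percentile, 54 of 158 with quantile normalization and 51 of 165 in the deposited table.

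The remaining cathepsins had the same sign without passing: CTSS was at -0.40 (adjusted p of 0.286), CTSB at -0.21 (adjusted p of 0.151) and CTSD at -0.15 (adjusted p of 0.166). CAST had the opposite sign, at 0.19 (adjusted p of 0.152), with all 6 probes between 0.14 and 0.25. An unadjusted p under 0.05 was found at 6 of 9 reference probes, compared with 13.1% of all probes. Taken within each line, no reference probe passed in limma, while 0.199% of all probes did in the low and 0% in the high RFI line. In the low RFI line 2 of 9 had an unadjusted p under 0.05, compared with 11.6% of all probes, and in the high RFI line 3 of 9, compared with 5.47%. CTSH was at -0.50 in the low and -0.48 in the high RFI line.

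From pig to pig within the groups, the cathepsins rose and fell together, while no pair of calpain system genes passed the test. With group means subtracted, 36 pairs of genes were tested over 47 pigs by two-sided permutation within groups, with Benjamini-Hochberg adjustment over the 36 pairs, and 7 pairs passed. They comprised all 6 pairs of cathepsins and CAPNS1 with CTSD. The 10 pairs within the calpain system had r from -0.19 to 0.24. CAPN3 entered through its reference probe, which correlated with the other CAPN3 probes at only 0.13 and 0.09.

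The closest pair was CTSH and CTSS, with r = 0.88 and rho = 0.81 (both permutation p of 1e-05, the smallest that 100000 permutations give, adjusted p of 7.2e-05 and 9e-05). Without the 2 pigs farthest from the median of CTSH, r was 0.82. CTSB correlated with CTSS at r = 0.85 and rho = 0.81, and with CTSH at r = 0.84 and rho = 0.78, again at the smallest permutation p for each. Without the 2 farthest pigs r was 0.79 and 0.80. On the 2 scan days taken separately, r of these 3 pairs was 0.80 to 0.85 and 0.86 to 0.92.

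CTSD was more loosely tied. It correlated with CTSB at r = 0.66 (permutation p of 1e-05) and rho = 0.65 (permutation p of 3e-05), and without 2 pigs r was 0.64. With CTSS, r was 0.50 (permutation p of 0.00095, adjusted p of 0.0057) and rho 0.54 (permutation p of 0.00027). With CTSH, r was 0.47 (permutation p of 0.00243, adjusted p of 0.0125) and rho 0.46 (permutation p of 0.00256). Without 2 pigs these fell to 0.45 and 0.42, and on the first scan day they were 0.30 and 0.23, against 0.57 and 0.59 on the second. CAPNS1 and CTSD correlated at r = 0.67 and rho = 0.66 (both permutation p of 1e-05), with r = 0.64 without 2 pigs, and r = 0.61 and 0.77 on the scan days. CAPN1 with CAST and CAPN2 with CAST were at r = -0.02 and 0.15 (permutation p of 0.891 and 0.334). CAPN1 with CAPNS1 was at r = 0.15 over all pigs, but at -0.22 on the first scan day and 0.55 on the second.

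**Figure D4:**
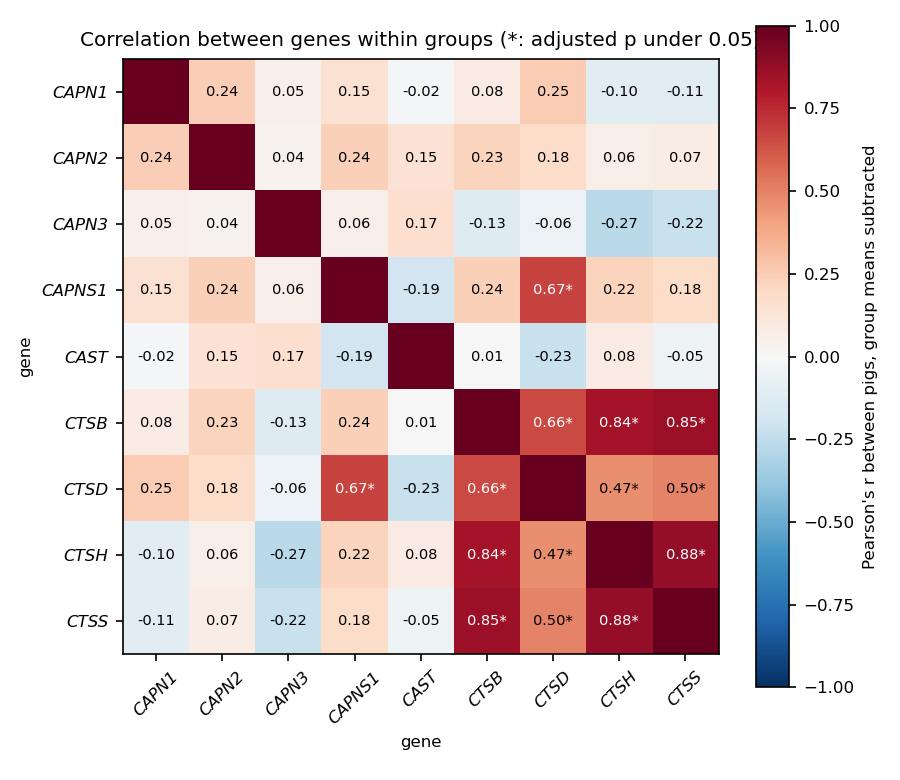
Pearson's r between the reference probes of the 9 genes over 47 pigs (both axes are genes, colour and number give r, group means subtracted), with a star where the adjusted p is under 0.05. The block of CTSB, CTSD, CTSH and CTSS carries r from 0.47 to 0.88, and only CAPNS1 with CTSD passes outside it.

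The genes most like each member in the same 47 pigs, with group means subtracted, are a description with no test. For CTSS they were GMFG (r = 0.96), VAV1 (r = 0.95) and TYROBP (r = 0.95), and the same 3 genes led for CTSH, at r = 0.89 each. CTSB was closest to CD1.1 (r = 0.90), LIPA (r = 0.86) and GMFG (r = 0.86), and CTSD to GRN (r = 0.76), CNDP2 (r = 0.69) and CAPNS1 (r = 0.67). CAPN1 was closest to MINK1 (r = 0.72), PSKH1 (r = 0.71) and DNLZ (r = 0.70), CAPN2 to AKR7A2 (r = 0.65), CAPN3 to FSD2 (r = 0.61), CAPNS1 to RPL7A (r = 0.72) and CAST to NR5A1 (r = 0.67).

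Markers of macrophages, cells known for high CTSB, CTSH and CTSS, moved with the cathepsins. Of 16 macrophage markers 14 were tested, all 14 had a positive line difference, and 9 passed, compared with 6.57% of all probes higher, with a median of 0.45. Those with the largest differences were LYZ, the lysozyme (1.50, adjusted p of 0.00936), CSF1R, the receptor for macrophage growth factor (0.94, adjusted p of 0.00201), the complement component C1QB (0.62, adjusted p of 0.00695) and the scavenger receptor MSR1 (0.59, adjusted p of 0.0440). The mean centred signal over the list ran from -1.57 to 0.07 in low RFI/HF, -0.90 to 1.65 in high RFI/HF, -1.02 to 0.38 in low RFI/LF and -0.83 to 0.93 in high RFI/LF pigs. For the diet, 13 of 14 markers had a negative difference, with a median of -0.36 and none past the test. ITGAM and CYBB had no probe under those names. CD68 was well above background on 28 arrays, CSF1R on 35 and MSR1 on 46, and C1QB passed at 1 of its 2 probes. The part of macrophages in the cathepsin differences was not tested, and in whole muscle more cells of a type and more RNA per cell cannot be told apart.

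Beyond the 9 genes, other members of the protease systems were compared through their reference probes. Of 12 further cathepsins and relatives 7 were tested, and 4 passed, compared with 16.4% of all probes. In high RFI pigs 3 were higher and 1 was lower: CTSC, which activates proteases of immune cells (0.74, adjusted p of 3.87e-05), CTSZ (0.35, adjusted p of 0.0186), CTSK, the collagen-degrading cathepsin (0.22, adjusted p of 0.0300), and CTSW, a cathepsin of lymphocytes (-0.22, adjusted p of 0.0123). CTSF, CTSA and legumain (LGMN) did not pass at their reference probes, although 1 of 2 tested CTSA probes did. CTSK passed at 2 of 5 tested probes. For the diet, 1 of the 7 passed, compared with 0.42% of all probes. It was CTSA, lower on the HF diet (-0.14, adjusted p of 0.0435), at 1 of its 2 tested probes. Of 13 further calpains 3 were tested, and none passed for the line. For the diet 1 of the 3 passed, again compared with 0.42% of all probes. It was CAPN10, lower on the HF diet (-0.19, adjusted p of 0.0211), at 1 of its 2 tested probes. Of the cystatins, inhibitors of the cysteine cathepsins, 4 were tested and CST3, cystatin C, was higher in high RFI pigs (0.30, adjusted p of 0.0167).

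Of 24 tested genes of lysosomal structure and biogenesis, 4 passed, 2 higher and 2 lower in high RFI pigs, a share of 16.7% near the 16.4% of all probes, with a median of 0.02. LIPA, the acid lipase, was at 0.56 (adjusted p of 0.00184) and ATP6V0D1, a proton pump subunit, at 0.25 (adjusted p of 0.00379), while the sorting receptors SORT1 and M6PR were at -0.29 (adjusted p of 0.00757) and -0.14 (adjusted p of 0.00540). Of 20 calpain substrates and partners, 4 were higher and 2 lower, compared with 16.4% of all probes called, with a median of -0.08. The annexins ANXA2 (0.45, adjusted p of 0.00189), ANXA1 (0.36, adjusted p of 0.0159) and ANXA5 (0.26, adjusted p of 0.00212) were higher. Annexins bind membranes in the presence of calcium. Titin (TTN), the sarcomeric anchor of CAPN3, was lower (-0.26, adjusted p of 1.42e-05). TTN and ANXA5 passed at 1 of 2 probes each, and M6PR at 2 of 6.

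**Figure D5:**
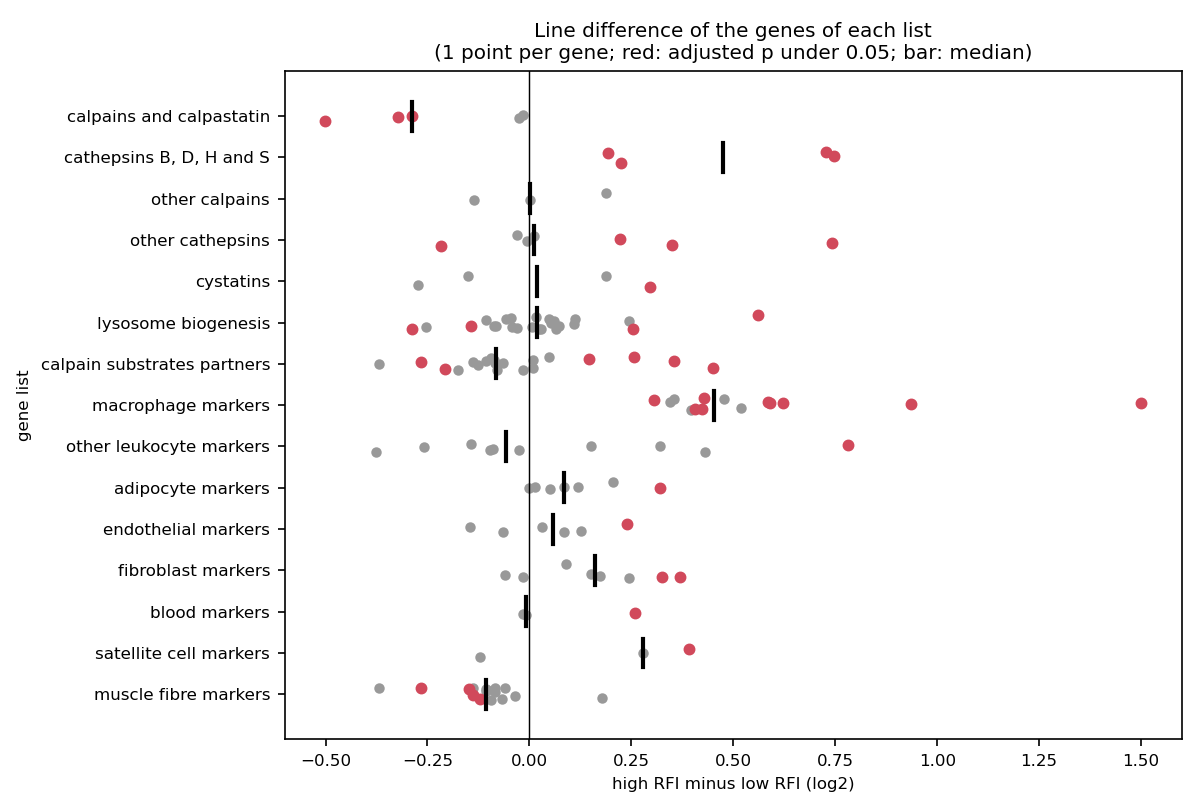
Line difference (x axis, high RFI minus low RFI, log2) of the reference probe of each gene in 15 lists (y axis), 1 point per gene, red for an adjusted p under 0.05, with the median of each list as a bar. The cathepsins B, D, H and S and the macrophage markers lie above 0, the calpains and calpastatin at or below it, and the lysosome list is centred near it.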

How the data were processed

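The authors deposited spot intensity files from Agilent Feature Extraction 10.7.3.1, whose processed signal is background-subtracted, and a table of log2 values, which equals the log2 of the median intensity minus each array's median over 34472 probes. Per the labels, R 2.10.0 was used. Labelled cRNA was made by linear amplification. No genome build is given in the sources used here, so no coordinates are printed.

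Control and outlier spots were left out. Tested probes were those well above background on at least 12 arrays, 42125 of 60305, and from the log2 processed signal the mean of these probes was subtracted per array. Lines and diets were compared on the 4 group means with limma 3.58.1 in R 4.3.3, with Benjamini-Hochberg adjustment at 0.05. Intervals are 95%. On simulated data for the line comparison, with 41957 probes of which 200 were changed, 75.0% of differences of 0.5 and 95.5% of differences of 1 were recovered, with 7.41% and 5.91% false calls, and no smaller difference was simulated.

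The members, lists and tests were chosen with earlier results of these data known. Of the 32 probes, 21 carry a transcript accession found in the RefSeq table. Genes named from a list are those called at the reference probe for line or diet, at most 4 per list, largest first. For each gene the 3 most correlated other symbols were found. Correlations used 100000 permutations within groups in Python 3.11.15 with numpy 2.4.6, pandas 2.3.3 and scipy 1.17.1, and figures were drawn with matplotlib 3.10.9. Pigs are separate samples, 1 per array, and the number of arrays limits the precision. Replicate numbers follow the order of deposit and pair no pigs. Alternatives for scaling, background, filter, outliers, blocks, test, probes and arrays are given in the closing section.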

Additional observations from a re-analysis of the deposited data

How the results depend on the processing

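The count of genes with a line difference, 7 of 9, was 6 to 7 over 14 alternatives, and the count of probes, 24 of 32, was 19 to 26 over 12. Only CTSB fell out without a filter on dim probes (0.23, adjusted p of 0.0630), and CAST when read at the probe of the rule as written (-0.02, adjusted p of 0.696), an alternative chosen after seeing the data, as was leaving out the 2 arrays least like their groups (high RFI/HF pigs 10 and 6), which kept 7 genes. At that probe the diet difference of CAST also turned, to -0.16, and the diet count became 2. CAPN1, which had no line difference, turned to 0.013 with quantile normalization, 0.015 with normexp, 0.0087 without those 2 arrays and 0.014 with the mean over probes. Within slides the line difference kept its sign on all 6 slides for CAPN2, CAPN3, CAST, CTSD, CTSH and CTSS, and on 5 for CTSB, which was at -0.0081 on slide 5. The diet count of 1 gene became 0 with normexp and 0 without the filter. The diet count of 2 probes became 0 with normexp and without the filter, and 1 with 75th percentile scaling, quantile normalization, the deposited table, plain variance analysis and without high RFI/HF pig 10. On the HF diet the count of 4 became 2 with normexp and without the filter and 1 with the mean over probes, and it was 3 with quantile normalization, with outlier spots kept, in the deposited table and without high RFI/HF pig 10. The calls of CAPN2 and CTSS on the HF diet each held in 7 of 12 alternatives. On the LF diet the count of 2 became 4 in the deposited table and 4 with the mean over probes. With outlier spots kept, CTSS on the HF diet rose to 1.33 (adjusted p of 0.0577) through the spot described above. The causes of the other changes were not tested. Counts of 0 within lines for diet and for the interaction stayed at 0 in 12 alternatives each, and the 7 correlated pairs were 6 to 7 in 4 alternatives. No paired analysis was possible because the labels give no replicate number that pairs pigs across groups.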

Other observations

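Markers of other cell types were compared between the lines in the same way, where 16.4% of all probes had passed. Of 8 fibroblast markers tested, COL1A1 (0.37, adjusted p of 0.0152) and COL1A2 (0.32, adjusted p of 0.0250), the chains of type I collagen, were higher in high RFI pigs, with a list median of 0.16. COL1A2 passed at 2 of its 4 probes. The difference was positive for 6 of the 8 markers, while DCN (-0.06) and LUM (-0.02) had the opposite sign and did not pass. Of 7 adipocyte markers, the fatty acid carrier FABP4 was higher (0.32, adjusted p of 0.0309), with a median of 0.09. Of 6 endothelial markers, the angiopoietin receptor TEK was higher (0.24, adjusted p of 0.0473), a share of 16.7% with a median of 0.06. TEK passed at 2 of its 4 probes. The difference was positive for 4 of the 6 markers, while PECAM1 (-0.06) and CDH5 (-0.15) had the opposite sign and did not pass. Of 3 blood markers, the red cell anion exchanger SLC4A1 was higher (0.26, adjusted p of 0.0464). HBB (-0.02) and ALAS2 (-0.01) had the opposite sign and did not pass. Of 3 satellite cell markers, the myogenic factor MYOD1 was higher (0.39, adjusted p of 0.0219), at 1 of its 2 probes. PAX7 (-0.12, adjusted p of 0.142) and MYF5 (0.28, adjusted p of 0.342) did not pass. Of 10 other leukocyte markers only CD79B, a B cell receptor chain, was higher (0.78, adjusted p of 0.00741), and it was well above background on 12 arrays. The median of that list was -0.06.

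Of 16 muscle fibre genes 4 were lower in high RFI pigs, TTN, TNNI2 (-0.15, adjusted p of 0.0158), PYGM (-0.14, adjusted p of 0.0445) and MYH2 (-0.12, adjusted p of 0.0259), with a median of -0.11. TTN passed at 1 of 2 probes, PYGM at 2 of 3 and MYH2 at 2 of 5. Genes such as CKM and MYH4 did not pass at their reference probes, although 6 of 11 and 5 of 10 of their probes did. Only MB had a positive difference (0.18, adjusted p of 0.258). None of these lists had a gene past the test for the diet.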
